A study of Mus musculus with 6 samples.

Results

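Vldlr, Cd36, Plin5, Apoa1 and Apob stand for lipid entry, droplet storage and lipoprotein export in mouse liver, and they are 5 of the 1834 genes in the deposited table. They were taken by name, and they were picked because of how they differed between the same 6 libraries. Their values in that comparison are therefore given as a description, without a test. The tested livers (AAV-Ly6d, 3 libraries) were labelled with the genotype Ly6d overexpression and had received an adeno-associated virus (AAV, a vector that carries a gene into liver cells) with Ly6d, which encodes a small membrane-anchored surface protein. The control livers (AAV-GFP, 3 libraries) were labelled WT and had received the same kind of virus with green fluorescent protein, so both groups carried a vector. Both groups were kept on one diet, and the study title names metabolic dysfunction-associated steatotic liver disease (MASLD), the accumulation of fat in the liver with metabolic disease. The labels used here leave out strain, sex, age, the kind of diet, vector dose and the promoter that drives the transgene, and they do not state that each library is a separate animal. The libraries are called AAV-Ly6d 1 to 3 and AAV-GFP 1 to 3 after their replicate numbers.

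A hepatocyte takes up fatty acids from blood and the remnants of lipoproteins, stores fat as triacylglycerol in droplets, and sends it out again in very low density lipoprotein (VLDL). Vldlr encodes a surface receptor that binds triacylglycerol-rich lipoproteins and is usually low in healthy liver, and Cd36 encodes a membrane glycoprotein that takes up long-chain fatty acids. Both rise in fatty liver and both are also made by endothelial cells. Plin5 encodes perilipin 5, a coat protein that holds lipid droplets close to mitochondria. Apoa1 encodes the main protein of high density lipoprotein (HDL), and Apob encodes the large structural protein of VLDL.

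The windows around the start sites are printed because 2 of the genes were lower and 2 higher in AAV-Ly6d, which makes the letters upstream of each worth setting side by side. Each window runs from 250 bases before to 50 bases after a RefSeq start site on GRCm38.p6, and all 5 genes were matched by symbol. Where a gene had more than 1 window, the one nearest the gene's annotated 5′ end is shown. Capitals mark exact matches on either strand. Variants of a motif were not searched, so a window without a match may still hold such an element. The motifs were AGGTCA (the core site of many nuclear receptors), the core promoter element TATAAA, the Sp1 site GGGCGG, the E-box CACGTG, and CCAAT, the site of NF-Y. DR1, the element that PPAR receptors bind, was also searched, as that core site repeated in the same direction with 1 base between, so any match to it would overlap matches to the core site.
Vldlr (chr19:27216234-27216533, plus strand): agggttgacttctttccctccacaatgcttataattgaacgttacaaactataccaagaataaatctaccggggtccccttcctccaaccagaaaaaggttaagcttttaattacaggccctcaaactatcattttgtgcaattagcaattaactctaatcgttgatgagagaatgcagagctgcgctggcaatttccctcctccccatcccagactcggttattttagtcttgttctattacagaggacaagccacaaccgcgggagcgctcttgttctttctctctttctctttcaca
Cd36 (chr5:17835847-17836146, minus strand): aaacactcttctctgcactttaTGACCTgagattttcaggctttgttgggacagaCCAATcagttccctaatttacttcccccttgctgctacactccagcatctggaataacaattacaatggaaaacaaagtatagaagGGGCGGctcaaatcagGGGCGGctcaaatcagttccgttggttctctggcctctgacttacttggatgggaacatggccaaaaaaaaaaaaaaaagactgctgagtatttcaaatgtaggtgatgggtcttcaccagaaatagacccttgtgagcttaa
Plin5 (chr17:56117499-56117798, minus strand): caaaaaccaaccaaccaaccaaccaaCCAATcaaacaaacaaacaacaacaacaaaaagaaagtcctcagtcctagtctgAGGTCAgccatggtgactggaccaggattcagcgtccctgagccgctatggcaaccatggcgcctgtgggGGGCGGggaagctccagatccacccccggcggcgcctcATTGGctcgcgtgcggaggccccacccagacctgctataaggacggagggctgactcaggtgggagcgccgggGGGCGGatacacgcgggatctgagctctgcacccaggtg
Apoa1 (chr9:46228380-46228679, plus strand): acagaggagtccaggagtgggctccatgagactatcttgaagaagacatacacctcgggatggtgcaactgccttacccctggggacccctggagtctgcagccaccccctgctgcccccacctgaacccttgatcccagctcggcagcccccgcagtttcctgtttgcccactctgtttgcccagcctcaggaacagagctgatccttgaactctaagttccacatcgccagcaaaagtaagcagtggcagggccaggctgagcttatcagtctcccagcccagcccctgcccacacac
Apob (chr12:7977427-7977726, plus strand): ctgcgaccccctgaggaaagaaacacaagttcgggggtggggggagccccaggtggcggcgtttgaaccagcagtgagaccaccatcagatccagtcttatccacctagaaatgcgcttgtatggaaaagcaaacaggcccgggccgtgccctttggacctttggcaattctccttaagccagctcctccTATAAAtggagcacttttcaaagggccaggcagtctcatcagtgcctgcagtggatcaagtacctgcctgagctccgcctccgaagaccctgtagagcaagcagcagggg
The Vldlr and Apoa1 windows held 0 exact matches to the 6 motifs. The windows of Cd36 and Plin5 shared 3 kinds of match, 1 to AGGTCA and 2 to GGGCGG in each, and 1 to CCAAT in Cd36 with 2 in Plin5, although Cd36 was lower and Plin5 higher in AAV-Ly6d. The Apob window held 1 TATAAA. Of all 32851 windows of the same length, 16.3% held AGGTCA, 35.7% GGGCGG, 37.4% CCAAT, 13.6% TATAAA, 7.15% CACGTG and 0.0396% DR1. The Cd36 window lies inside the gene as GENCODE annotates it, since GENCODE also lists a start further upstream.

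In the data as a whole, the values are normalised read counts, which are reads divided by 1 scaling factor per library. The reads of the 1834 genes, recovered from the values, summed to between 3248078 and 4359932 per library, but the depth of the whole libraries cannot be seen from this table. Ly6d itself had 3181, 1799 and 3275 in AAV-Ly6d livers, against 56.1, 9.68 and 182 in AAV-GFP livers. Of 13 hepatocyte markers 5 are in the table, and all 5 were expressed in every library and were higher in AAV-Ly6d without overlap (median log2 fold change 0.65). Their summed level lay between 233921 and 262204 in AAV-Ly6d libraries and between 126989 and 179196 in AAV-GFP libraries. Low genes were set aside by asking for 1 or more in 3 or more libraries. Over the 1780 genes left, the table-wide fit (limma on log2(value + 1), Benjamini-Hochberg adjusted p under 0.05) called 782 genes, 43.9%. Of these, 283 (15.9%) were higher and 499 (28.0%) lower in AAV-Ly6d, and the groups did not overlap for 1504 (84.5%). The balance turned after each library was rescaled by its median ratio, with 649 genes higher and 286 lower. The rescaling factors were 0.857 to 0.915 in AAV-Ly6d and 1.02 to 1.36 in AAV-GFP. They came from genes of this table alone, and the method takes most of these genes as unchanged. If the genes were chosen for a difference between the groups, the factors may hold part of that difference. Among the hepatocyte markers the transcription factor gene Hnf4a (0.65) and Tat (1.19, or 0.85 without AAV-GFP 2), a gene of tyrosine breakdown, rose and the other 3 did not pass, and none of the 5 passed when any library other than AAV-GFP 2 was left out. How the 1834 genes were chosen for the table is not stated, and these shares are the background for every count of genes given here. In the table-wide fit 1394 of the 1780 genes had an unadjusted p under 0.05. If genes entered the table because AAV-Ly6d and AAV-GFP differed in them, the calls and shares depend on that selection. Listed genes missing from the table could then be unchanged ones, so the counts within lists would depend on it too. Whether the table was made in this way was not tested. Over all tested genes the median log2 fold change was -0.67 on the deposited scale and -0.33 after each library was rescaled by its median ratio. AAV-GFP 2 stands apart from the other libraries, and the 5 genes are given with and without it, as are the named lipid genes that moved furthest when it was left out.

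Vldlr was the most reduced of the 5 genes and the least abundant. It lies on chromosome 19 from 27216484 to 27254231 (plus strand, GRCm38, as for the other genes). Its normalised read count was 31.1, 37.9 and 40.3 in AAV-Ly6d livers, against 144, 309 and 244 in AAV-GFP livers. All AAV-Ly6d libraries lay below all AAV-GFP libraries, and the lowest AAV-GFP value was 3.58 times the highest AAV-Ly6d value. The means were 36.4 ± 4.75 in AAV-Ly6d and 232 ± 82.9 in AAV-GFP (SD, n = 3 each), a ratio of 0.157. The log2 fold change was -2.58 (SE 0.34), and -2.34 without AAV-GFP 2. These values rest on few reads, between 32 and 38 per AAV-Ly6d library and between 149 and 289 per AAV-GFP library, which limits their precision.

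Cd36 was also lower, by a smaller factor and with a wide spread among the controls. The gene lies on chromosome 5 from 17781690 to 17888801 (minus strand). It had 1601, 1133 and 1583 in AAV-Ly6d livers, against 2217, 3678 and 5777 in AAV-GFP livers. The groups did not overlap, but the highest AAV-GFP library held 2.61 times the lowest, against 1.41 times among AAV-Ly6d libraries. The means were 1439 ± 265 in AAV-Ly6d and 3891 ± 1789.7 in AAV-GFP (SD, n = 3 each), a ratio of 0.370 and a log2 fold change of -1.34 (SE 0.34). AAV-GFP 3 was the high library here, and without it the log2 fold change was -1.01. Without AAV-GFP 1, the lowest control, it was -1.70.

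Markers of endothelial cells, which also make Vldlr and Cd36, moved in the same direction. Of 17 endothelial markers 10 were tested, and all 10 fell, against 28.0% of all tested genes. Their median log2 fold change was -1.65, and the median length of their longest transcripts was 6961.5 bases. Tested genes of 6000 to 10000 bases had a median log2 fold change of -0.91. The summed level of the 10 markers lay between 2908 and 3567 in AAV-Ly6d libraries and between 7953 and 12818 in AAV-GFP libraries. None of the 10 was at 0 in any library. The count of falls was 3 without AAV-Ly6d 3 and 0 without AAV-Ly6d 1, where no gene of the table passed, and 9 or 10 when another library was left out. Vldlr amounted to 1.07%, 1.06% and 1.33% of that sum in AAV-Ly6d, against 1.55%, 2.41% and 3.07% in AAV-GFP, so it was lower relative to these markers too. Cd36 amounted to 55.0%, 31.8% and 52.4% in AAV-Ly6d, against 23.8%, 28.7% and 72.6% in AAV-GFP, with overlapping groups. Of 14 macrophage markers only Mrc1 is in the table, and it fell (log2 fold change -1.06), which is too little to describe macrophages. Of 9 adipocyte markers only Retn is in the table, with 0 reads in every AAV-Ly6d library and in AAV-GFP 2, a value of 0.968 in AAV-GFP 1 and one of 23.6 in AAV-GFP 3, the library with the highest Cd36 value. No muscle marker is in the table. In bulk tissue, fewer cells of a type and less RNA per cell cannot be told apart, and the part of other cells in the Vldlr and Cd36 values was not tested.

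**Figure D1:**
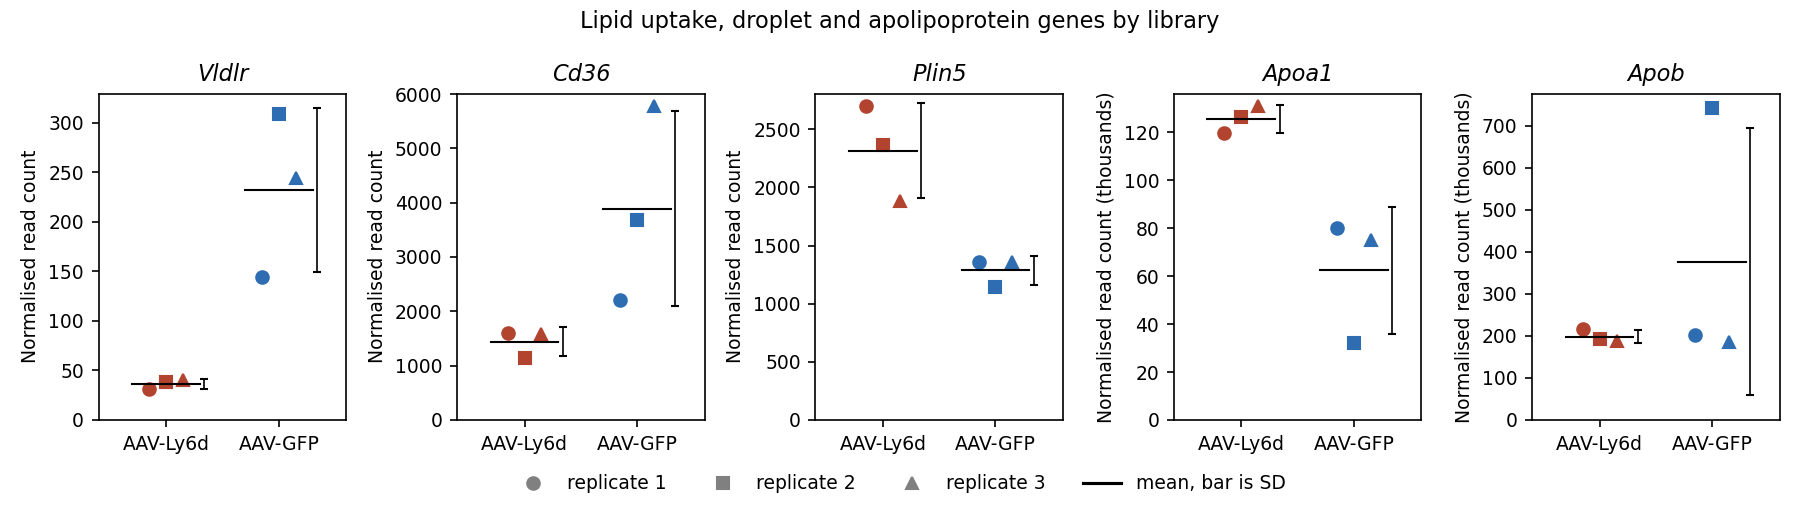
Normalised read counts (vertical axes, from 0) of Vldlr, Cd36, Plin5, Apoa1 and Apob in each library, AAV-Ly6d on the left and AAV-GFP on the right of each panel, with the group mean as a line and the SD as a bar (n = 3). The groups do not overlap for Vldlr, Cd36, Plin5 and Apoa1, while Apob differs in AAV-GFP 2 alone, at 743167.

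Plin5 was higher in AAV-Ly6d and had the tightest control values of the 5 genes. It lies on chromosome 17 from 56111601 to 56117596 (minus strand). It had 2703, 2366 and 1884 in AAV-Ly6d livers, against 1362, 1145 and 1359 in AAV-GFP livers. Every AAV-Ly6d library was above every AAV-GFP library, the lowest by a factor of 1.38 over the highest control. The means were 2318 ± 412 in AAV-Ly6d and 1289 ± 124 in AAV-GFP (SD, n = 3 each), a ratio of 1.80. The log2 fold change was 0.84 (SE 0.20), and between 0.72 and 0.98 with any one library left out. It was 1.18 after rescaling by the median ratio, a gain the scaling gives to every gene of the table. Hepatocyte markers were higher in AAV-Ly6d as well, with a median log2 fold change of 0.65, as given earlier. The median length of their longest transcripts was 2375 bases. Tested genes of 1500 to 3000 bases had a median log2 fold change of 0.52. The part of these markers in the Plin5 and Apoa1 values was not tested.

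Apoa1 had a higher mean in AAV-Ly6d, and the difference was smaller without 1 control library. The gene lies on chromosome 9 from 46228580 to 46230466 (plus strand). It had 119481, 126259 and 130777 in AAV-Ly6d livers, against 80121, 31908 and 75040.5 in AAV-GFP livers. The AAV-Ly6d libraries were close together (coefficient of variation 4.53%) and all above the controls, while AAV-GFP 2 held 0.411 of the mean of the other 2 controls. The means were 125506 ± 5685 in AAV-Ly6d and 62357 ± 26491 in AAV-GFP (SD, n = 3 each), a ratio of 2.01. The log2 fold change was 1.12 (SE 0.36), and without AAV-GFP 2 it was 0.69, with a ratio of means of 1.62.

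Apob, the most abundant of the 5 by reads, differed between the groups through a single library. It lies on chromosome 12 from 7977648 to 8016835 (plus strand). It had 216089, 192682 and 187160.3 in AAV-Ly6d livers, against 201516, 743167 and 186314 in AAV-GFP livers. AAV-GFP 2 held 3.83 times the mean of the other 2 controls, and those 2 lay within or just below the AAV-Ly6d range. The means were 198644 ± 15358 in AAV-Ly6d and 376999 ± 317202 in AAV-GFP (SD, n = 3 each), and the control SD was 84.1% of its mean. The log2 fold change was -0.61 (SE 0.51) with all libraries and 0.033 without AAV-GFP 2, where the ratio of means was 1.02. Apob was therefore lower in AAV-Ly6d only with that library in the comparison.

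**Figure D2:**
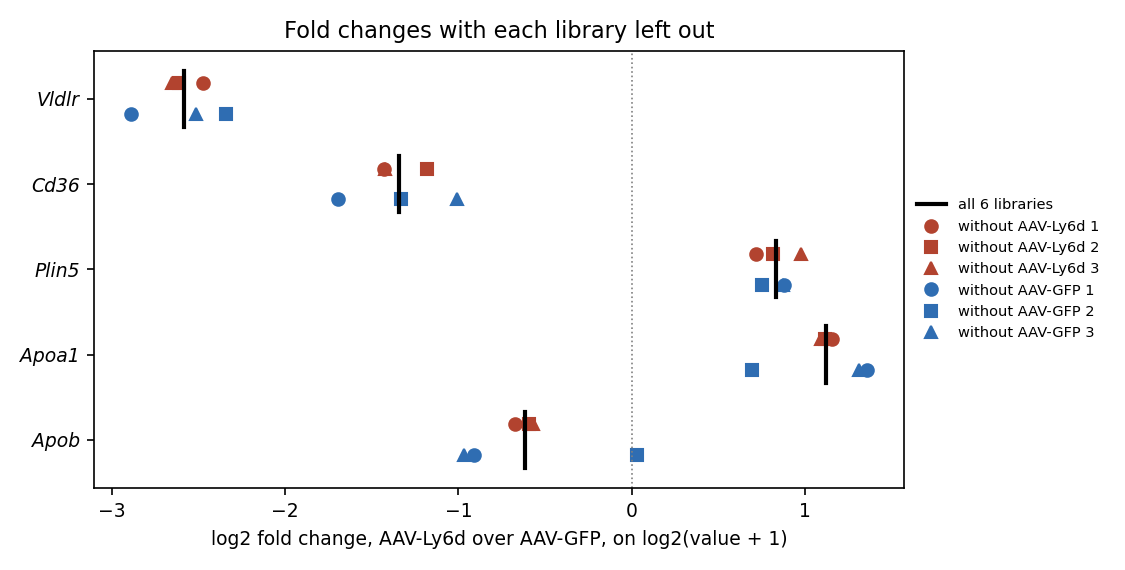
log2 fold change of each gene, AAV-Ly6d over AAV-GFP on log2(value + 1) (horizontal axis), with all 6 libraries (black line) and with each library left out in turn (points). Vldlr and Cd36 stay below 0 and Plin5 and Apoa1 above it in all 6 cases, while Apob moves to 0.033 without AAV-GFP 2.

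Of the 5 genes, 4 are among the genes called in the table-wide fit (against 43.9% of all tested genes) and the same 4 had groups that did not overlap (against 84.5%). Since the genes were picked on these values, the counts say nothing further about them. The gene outside both counts was Apob. With 1 library left out at a time, Vldlr was called in 5 of the 6 fits, Cd36 in 2, and Plin5 and Apoa1 in 1 each. These calls rest on the same values, so they are no test of the 5 genes either.

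AAV-GFP 2 departed from the other controls in opposite directions for the 2 apolipoprotein genes. Apob took 20.1% of the summed values of the table in that library, against 4.49% to 5.10% in the AAV-Ly6d libraries and 6.41% and 6.40% in AAV-GFP 1 and AAV-GFP 3. Apoa1 took 0.861% there, against 2.82% to 3.17% in AAV-Ly6d and 2.55% and 2.58% in AAV-GFP 1 and AAV-GFP 3. Per 1000 bases of transcript, the ratio of the Apob level to the Apoa1 level was 0.134, 0.113 and 0.106 in AAV-Ly6d, against 0.187, 1.73 and 0.184 in AAV-GFP. All AAV-Ly6d ratios were below all AAV-GFP ratios, and the 2 close controls differed from AAV-Ly6d far less than from AAV-GFP 2. Apob has the longest transcript of the 5 genes and Apoa1 the shortest. Without AAV-GFP 2, the median log2 fold change was -0.49 for tested genes from 10000 bases and 0.40 for those under 1500 bases. The part of length in this ratio was not tested.

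**Figure D3:**
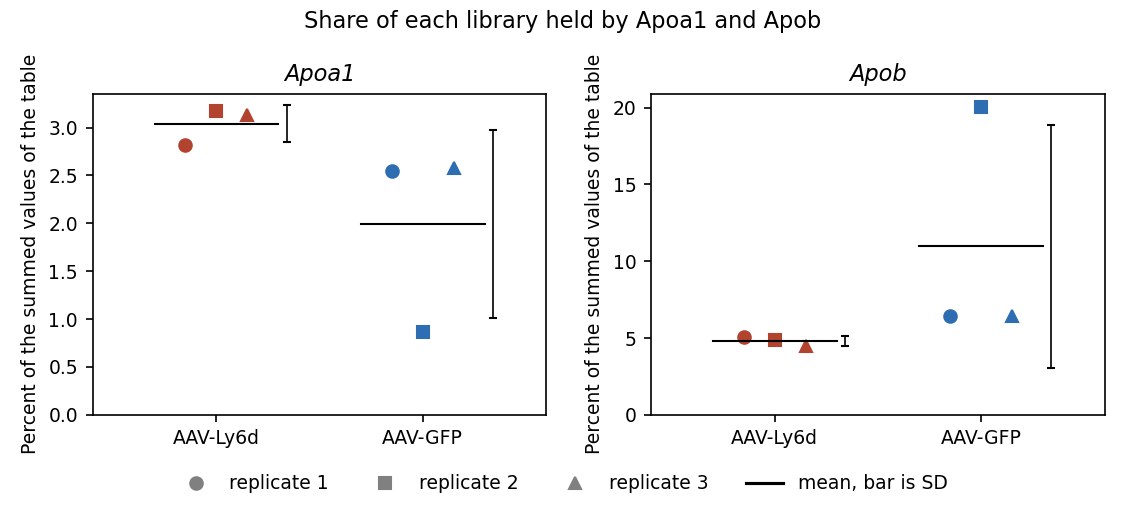
Percent of the summed values of the 1834 genes held by Apoa1 and by Apob in each library (vertical axes, from 0), with the group mean as a line and the SD as a bar (n = 3 each). Apob holds 20.1% of AAV-GFP 2 and at most 6.41% of any other library, and Apoa1 holds 0.861% of that library.

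Transcript length went along with this library. The longest annotated transcript has 13934 bases for Apob, 7971 for Vldlr, 3399 for Cd36, 1986 for Plin5 and 1035 for Apoa1. On the log2 scale, AAV-GFP 2 minus the mean of the other 2 controls was 1.94 for Apob, 0.72 for Vldlr, 0.04 for Cd36, -0.25 for Plin5 and -1.28 for Apoa1, which is the order of their lengths. Over the tested genes the median of this difference was 1.00 for the 105 genes with transcripts of at least 10000 bases, and -0.14 for the 258 genes under 1500 bases. Apob lay well above the median of its length class, where 3 of the 105 genes, itself included, were as high or higher. Apoa1 lay below the median of its own class, and 107 of all 1780 tested genes, itself included, were as low or lower. The difference between the groups went along with length as well. Without AAV-GFP 2, Vldlr was at -2.34 against a median log2 fold change of -0.66 in its class of 6000 to 10000 bases, and Cd36 at -1.33 against -0.53 between 3000 and 6000 bases. Plin5 was at 0.75 against 0.40 between 1500 and 3000 bases, Apoa1 at 0.69 against 0.40 under 1500 bases, and Apob at 0.033 against -0.49 from 10000 bases. The part of length in the 5 genes' values was not tested.

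**Figure D4:**
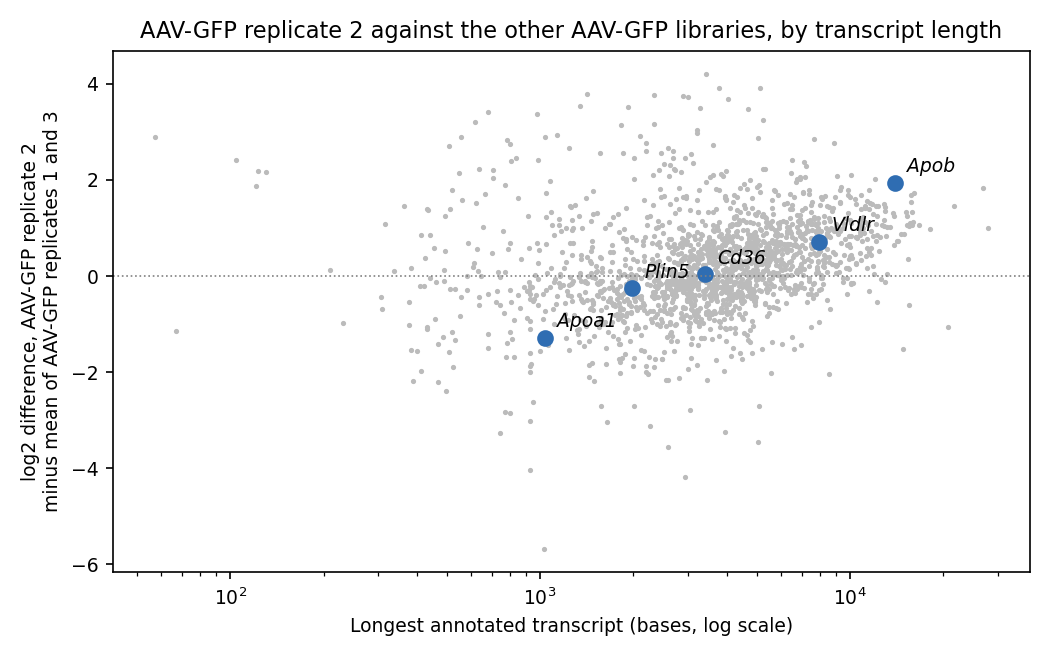
Difference on the log2(value + 1) scale between AAV-GFP 2 and the mean of AAV-GFP 1 and AAV-GFP 3 (vertical axis) against the longest annotated transcript (horizontal log axis, bases) for the tested genes (grey), with the 5 genes in blue. Apob, the longest of the 5, is at 1.94 and Apoa1, the shortest, at -1.28.

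Compared per 1000 bases of transcript, which allows levels of different genes to be set beside each other, Apoa1 was the highest of the 5 genes in AAV-Ly6d, at 121262 ± 5493 (SD, n = 3), followed by Apob at 14256 ± 1102. Plin5 came next at 1167 ± 207, then Cd36 at 423 ± 78.0, and Vldlr last at 4.57 ± 0.595. These 5 ranges did not overlap in AAV-Ly6d. In AAV-GFP, Apoa1 averaged 60248 ± 25595 and Apob 27056 ± 22765, and their ranges overlapped because of AAV-GFP 2. Cd36, at 1145 ± 527 in AAV-GFP, stood next to Plin5, at 649 ± 62.7, with overlapping ranges, and Vldlr was again lowest at 29.1 ± 10.4. The Plin5 level was 2.89, 3.57 and 2.04 times the Cd36 level per length in AAV-Ly6d, against 1.05, 0.533 and 0.402 times in AAV-GFP. Per length, the storage gene thus stood above the uptake gene in every AAV-Ly6d library, and in AAV-GFP only in AAV-GFP 1, narrowly. By normalised read count Plin5 was above Cd36 in every AAV-Ly6d library too, but not in AAV-GFP 1, at 1362 against 2217. The lengths are those of the longest annotated transcripts, and which transcripts were present was not tested.

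The genes that varied most like each of the 5 from library to library, once each group's mean was taken away, differed from gene to gene. The measure is Pearson's r over the 6 libraries, among tested genes with a mean of at least 209, and 6 points from shared libraries make it a description only. For Apob they were Birc6 (r = 1.00, 15768 bases), Zbtb41 (0.999, 8361 bases) and Hectd4 (0.997, 15482 bases), all long transcripts. For Apoa1 they were Rpl10a (r = 1.00), F12 (1.00) and Rps6 (0.997), which encode a ribosomal protein, coagulation factor XII and another ribosomal protein, with transcripts of 1618, 1960 and 1128 bases. In both cases AAV-GFP 2 sets most of the pattern, with Birc6 at 6313 there, against 2234 and 2075 in AAV-GFP 1 and AAV-GFP 3. The nearest to Plin5 were Slc25a51 (0.982), which encodes a mitochondrial NAD+ carrier, the lactate dehydrogenase gene Ldha (0.977) and Nnmt (0.970). The nearest to Vldlr were Tkfc (0.952), Sae1 (0.928) and Rpa1 (0.924). Cd36 was closest to Rps13 (0.921), Zfp422 (0.920) and Cyp2b9 (0.909), a female-biased cytochrome P450 gene which, like Cd36, had its highest value in AAV-GFP 3, at 2016.

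Other genes of lipid handling are given from 8 lists, with the 5 genes left out of the counts. Genes past the table-wide threshold are said to have risen or fallen. Besides Vldlr, 9 of 25 lipoprotein receptor and regulator genes were tested, of which 5 fell, 1 rose and 3 did not pass. Over all tested genes 28.0% fell and 15.9% rose. The median log2 fold change of the 9 genes was -0.96, against -0.67 over all tested genes. The median length of their longest transcripts was 7999 bases. Tested genes of 6000 to 10000 bases had a median log2 fold change of -0.91. The scavenger receptor genes Stab1 (-1.51), Stab2 (-1.30) and Msr1 (152 ± 22.2 in AAV-Ly6d and 309 ± 60.0 in AAV-GFP, SD, n = 3 each) fell. Stab1 and Stab2 are among the endothelial markers given earlier. Reln (-1.54, or -1.23 without AAV-GFP 2), whose product is a ligand of the VLDL receptor and which marks stellate cells, fell, as did Mylip (-0.96), whose product marks lipoprotein receptors, the VLDL receptor among them, for degradation. Lrp2, a large endocytic receptor gene, rose by 2.00 from a low level, with 32.0 ± 24.1 in AAV-Ly6d and 6.35 ± 2.91 in AAV-GFP (SD, n = 3 each). Those that did not pass were Lrp1 (-0.63, or -0.33 without AAV-GFP 2), Sdc1 (0.43) and Dab2 (-0.58). Lrp1 and Sdc1 had the highest levels of the tested genes in this list. Lrp1 averaged 17464 in AAV-Ly6d and 27462 in AAV-GFP, with overlapping groups. Sdc1 averaged 4993 in AAV-Ly6d and 3730 in AAV-GFP, without overlap. The summed levels of stellate cell and fibroblast markers were 1128 to 2527 in AAV-Ly6d and 3648 to 5196 in AAV-GFP. Of 13 such markers 8 were tested and 6 fell, against 28.0% of all tested genes. That count of falls was 0 without AAV-Ly6d 1 or AAV-Ly6d 3, 3 without AAV-GFP 1 or AAV-GFP 3, 4 without AAV-GFP 2 and 6 without AAV-Ly6d 2. The Lrp2 rise passed in 0 of the 6 fits that leave out 1 library. The count of receptor genes past the threshold, all of them lower, was 6 without AAV-GFP 2, 3 or 4 without AAV-GFP 1, AAV-GFP 3 or AAV-Ly6d 2, and 0 without AAV-Ly6d 1 or AAV-Ly6d 3.

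Besides Cd36, 4 of 27 genes of fatty acid uptake and activation were tested. Fabp5, a fatty acid binding protein gene, rose by 1.19, with 132 ± 48.9 in AAV-Ly6d and 56.5 ± 17.0 in AAV-GFP (SD, n = 3 each). Cav1 (-1.09), Lpl (-0.85) and Angptl4 (0.83, or 0.40 without AAV-GFP 2), which encode caveolin 1, lipoprotein lipase and an inhibitor of that lipase, did not pass. Fabp5 did not pass without any one library. Of 14 further PPAR gamma targets known from steatotic liver, Fabp5 and Lpl are the 2 tested, and Pparg, Cidec, Plin2 and Fabp4 are not analysed here.

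Besides Plin5, 3 of 26 genes of the droplet coat and lipolysis were tested. Pnpla2, which encodes the droplet lipase ATGL, rose by 0.97, or by 0.64 without AAV-GFP 2. It had 2666, 2428 and 2487 in AAV-Ly6d livers, against 1589, 815 and 1663 in AAV-GFP livers, and it passed only without AAV-GFP 2 among the fits that leave out 1 library. Hsd17b13, a droplet protein gene of hepatocytes, had a log2 fold change of 0.74 (0.42 without AAV-GFP 2) and Rnf213 one of -0.68 (-0.33 without it), and neither passed. In triacylglycerol synthesis 3 of 18 genes were tested. Lpin2, a phosphatidate phosphatase gene, rose by 0.62, while Gpat3 (0.56) and Lpin1 (1.53, or 0.86 without AAV-GFP 2) did not pass. Lpin2 passed in 1 of the 6 fits that leave out 1 library.

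Besides Apoa1 and Apob, 8 of 30 genes of apolipoproteins and their partners were tested, of which 3 rose, 0 fell and 5 did not pass. Over all tested genes 15.9% rose. The median log2 fold change of the 8 genes was 0.87, and the median length of their longest transcripts was 1660 bases. Tested genes of 1500 to 3000 bases had a median log2 fold change of 0.52. Apoa5, a regulator of plasma triacylglycerol from the same gene cluster as Apoa1, rose by 0.80, or by 0.57 without AAV-GFP 2. It had 22814, 25799 and 25928 in AAV-Ly6d livers, against 18915, 10241 and 14859 in AAV-GFP livers, again lowest in AAV-GFP 2. The other 2 that rose, Apol9a (1.17, or 0.78 without AAV-GFP 2) and Apol9b (0.95, or 0.71), are near copies of each other that can share reads, so their separate values are uncertain. Among those that did not pass, Apom, an HDL protein gene, had a log2 fold change of 0.94 (0.48 without AAV-GFP 2), Apoc2 one of 0.96, Apof 0.41, Apon 0.55 and Apol7a -1.19. The hepatocyte markers moved in the same direction, with a median of 0.65. The number past the threshold was 6 after rescaling by the median ratio. It was 4 without AAV-GFP 2, 2 without AAV-GFP 1, and 0 without AAV-GFP 3 or any one AAV-Ly6d library. In VLDL assembly and HDL lipidation 2 of 26 genes were tested, Ces3b (0.56) and the sterol transporter gene Abcg1 (-0.84), and neither passed. Mttp, Apoe and Apoc3 are not analysed here.

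Besides Plin5, 6 of 29 PPAR alpha targets were tested, and all 6 were higher in AAV-Ly6d. Of them 5 were past the threshold, against 15.9% of all tested genes that rose. Their median log2 fold change was 0.89, and the median length of their longest transcripts was 2745 bases. Tested genes of 1500 to 3000 bases had a median log2 fold change of 0.52. Fgf21, a liver hormone gene, rose by 2.28, Cyp4a31 by 1.47 and Cyp4a10 by 0.94, both fatty acid omega-hydroxylase genes with close copies. Ehhadh, of peroxisomal oxidation, rose by 0.84. Cpt1a, which encodes the carnitine palmitoyltransferase of mitochondrial fatty acid entry, rose by 0.58, and Angptl4 did not pass. The log2 fold change of Fgf21 was 1.40 without AAV-GFP 2. The number of these 6 genes past the threshold was 3 without AAV-GFP 2, 2 without AAV-GFP 1, 1 without AAV-GFP 3 and 0 without any one AAV-Ly6d library. The part of the hepatocyte markers, higher in AAV-Ly6d too, was not tested here either.

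**Figure D5:**
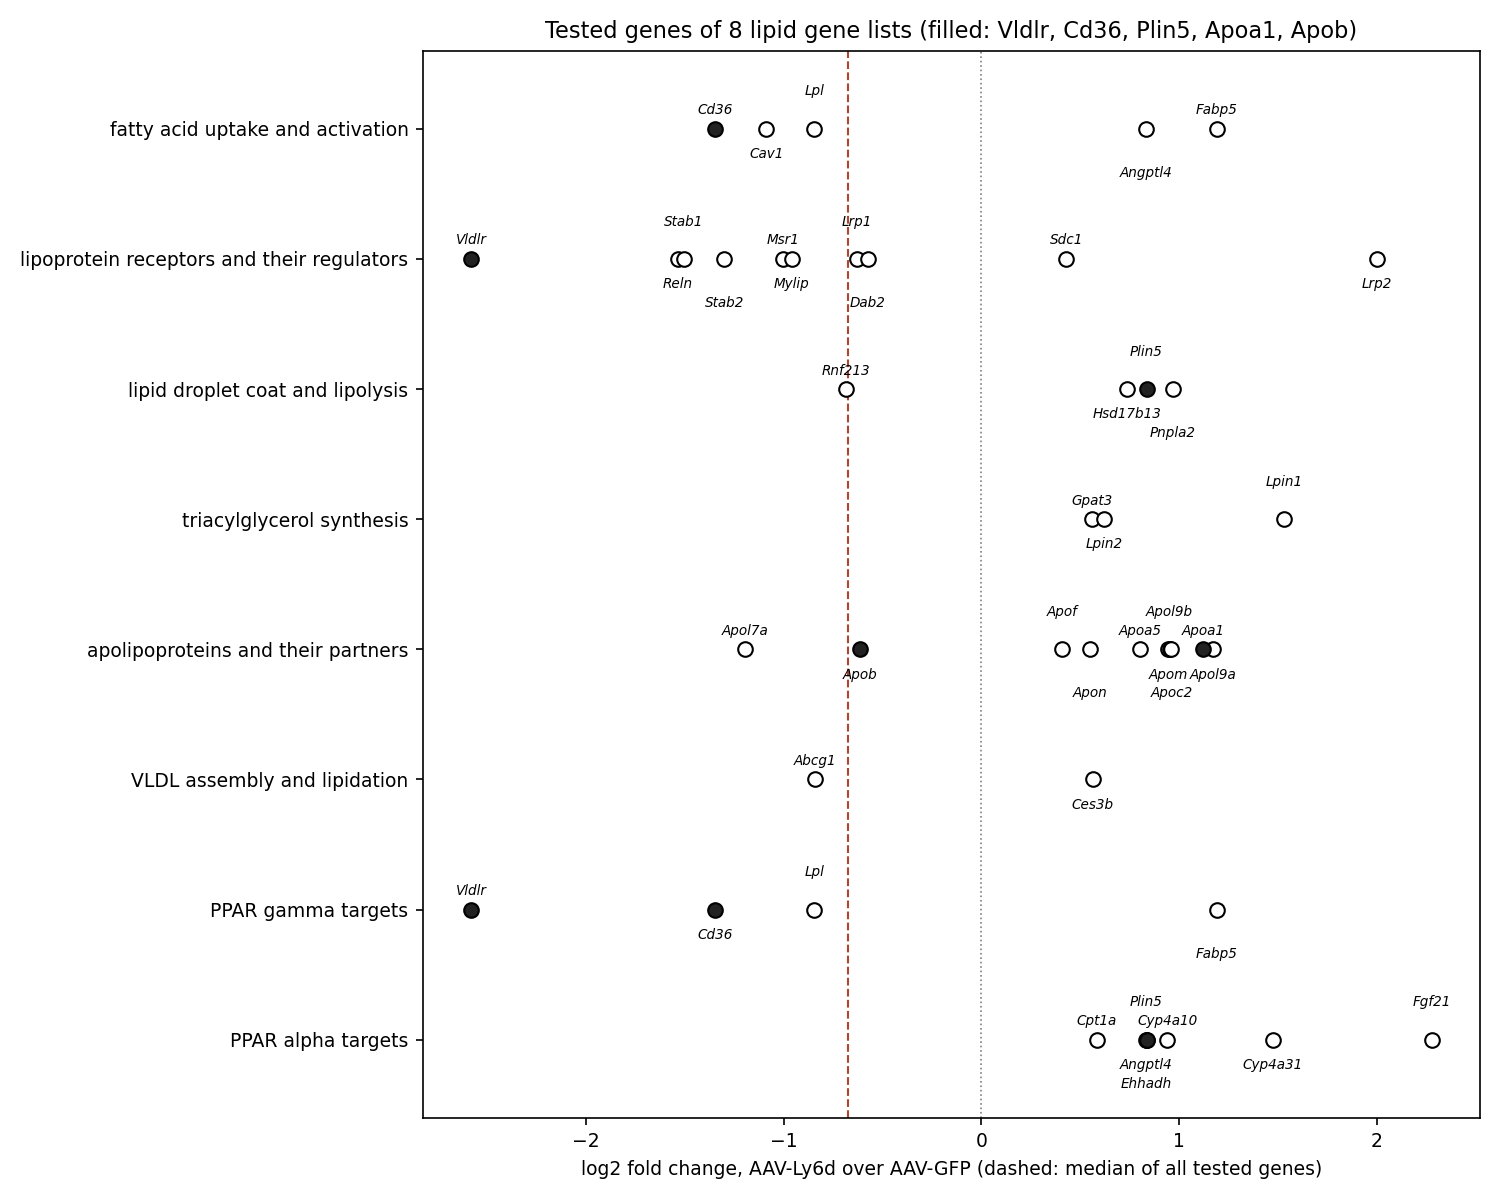
log2 fold change, AAV-Ly6d over AAV-GFP on log2(value + 1) (horizontal axis), of every tested gene in the 8 lipid gene lists (rows), with Vldlr, Cd36, Plin5, Apoa1 and Apob filled and the median of all tested genes (-0.67) dashed. Tested PPAR alpha targets and triacylglycerol synthesis genes lie above 0, and most lipoprotein receptor genes below it. The dashed median mixes transcript lengths, with a median of 0.52 from 1500 to 3000 bases and -0.91 from 6000 to 10000 bases.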

How the data were processed

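RNA sequencing of liver was compared between AAV-Ly6d (3 libraries) and AAV-GFP (3 libraries). The submitters' processing notes name Bowtie 0.12.2 and mm10. The rule that chose the 1834 genes, the counter, its strand setting, its annotation and the normalisation tool are not stated in the sources used here. The values the authors deposited are a signal that is never negative, normalised read counts. In each deposited column all values (100%) lay within 0.001 of a whole multiple of 1 step, so reads could be recovered. The members and lists were chosen with earlier results of these data known.

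Identifiers were matched to GENCODE M21 on GRCm38, which is mm10, and 1833 had a symbol. The 1780 genes that reached 1 in 3 or more libraries were fitted on log2(value + 1) with limma 3.58.1 under R 4.3.3, using a mean-variance trend and no covariate. A call is a Benjamini-Hochberg adjusted p under 0.05 over these genes. The adjustment takes no account of how the genes of the table were selected. Fold changes on this scale understate changes of low genes. P-values measure the spread between libraries, which may be technical. The named genes are the 5 members, list genes that passed (at most 8 in a list) and the 3 genes most correlated with each member. List genes that did not pass are named after their values were seen. edgeR 4.0.16 and DESeq2 1.42.0 on recovered reads served as alternatives. The fits were tried on simulated data.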

Additional observations from a re-analysis of the deposited data

How the results depend on the processing

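The log2 fold changes of Vldlr, Cd36 and Apoa1 kept their direction and moved by less than the spread between replicates in all 17 alternatives run for each. Of these, the replicate block, limma without the trend and the changed filters on low values leave a fold change as it is by construction. For Plin5 the log2 fold change was 0.84 on the deposited scale and 1.18 after rescaling by the median ratio. It was 1.13 in edgeR with TMM factors and 1.17 in DESeq2 with its own size factors. These scalings came from genes of this table alone and take most of them as unchanged, which was not tested. The log2 fold change of Apob changed sign to 0.033 without AAV-GFP 2. With each library left out in turn the ranges were -2.89 to -2.34 for Vldlr, -1.70 to -1.01 for Cd36, 0.72 to 0.98 for Plin5, 0.69 to 1.36 for Apoa1 and -0.96 to 0.033 for Apob. The number of genes called in limma, 782, ranged from 0 (with 773 at an unadjusted p under 0.05) to 607 with a library left out. It was 1 at an adjusted p under 0.01. On recovered reads with the deposited scaling, alternatives chosen after seeing the data, edgeR called 465 and DESeq2 1347. The share of calls that were higher, 36.2% in limma, was 69.4% after rescaling, 69.1% in edgeR with TMM factors, 74.3% in DESeq2 with its own size factors, 46.6% without AAV-GFP 2 and 25.2% in limma without the trend. Same-numbered libraries did not deviate together (correlations of -0.02, -0.05 and -0.06 over genes), so the numbers were not taken to pair the samples, and the fit with a replicate block called 48 genes. Low read numbers limit Vldlr, and the cause of these differences was not tested.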
